A study of Mus musculus with 28 samples.

Results

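The phenobarbital response of mouse liver was compared between a long feeding period in carcinogen-initiated mice and a short feeding period in untouched mice, using 14 of the 28 arrays of the series. All animals were male and all samples were whole liver. The CD-1 groups, an outbred stock, received 0 or 1500 ppm phenobarbital in the diet for 7 days, with 4 animals each. The C3H/HeNCrlCrlj groups, an inbred strain, received 0 or 500 ppm phenobarbital for 27 weeks, with 3 animals each, and every C3H animal, controls included, had first been injected once into the peritoneum with diethylnitrosamine, an alkylating liver carcinogen, at 90 mg/kg. Both strains carry the mouse forms of the nuclear receptors CAR and PXR. The members were chosen by their labels alone, and the quantity reported throughout is the difference of differences, the C3H effect (treated minus control) minus the CD-1 effect, on a log2 scale. Strain, dose, duration, the carcinogen and the array slide all differ together between these effects, so their parts in any difference cannot be told apart. Age, and whether the C3H tissue held tumours or came from around them, are not given in the sources used here.

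Phenobarbital is the classical inducer of hepatic drug metabolism. It acts mainly through CAR (Nr1i3), which moves to the nucleus, pairs with RXR and switches on cytochrome P450, conjugation and transport genes, and PXR (Nr1i2) shares many of these targets. Given after diethylnitrosamine it acts as a liver tumour promoter in mice, and the tumours that grow out under phenobarbital often carry activated beta-catenin, the effector of Wnt signalling. In normal liver beta-catenin marks the hepatocytes around the central vein, which make glutamine synthetase (Glul), while hepatocytes around the portal vein run the urea cycle and gluconeogenesis.

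The arrays of the strains were not alike in quality. On the CD-1 arrays 46.2% to 70.7% of probes were well above background, replicate spots varied by 11% to 21.2% and signal near the top of the range (the percentile above which 1% of probes lie) was 4019 to 6490, against 41.3% to 46%, 5.12% to 6.6% and 22580 to 31390 on the C3H arrays. The median standard deviation (SD) of a probe between animals was 0.43 and 0.42 in the CD-1 control and treated groups and 0.24 and 0.29 in the C3H groups. Levels were therefore compared within a strain only. The CD-1 controls lay on 1 slide and the treated CD-1 animals on another, so slide and treatment cannot be told apart in CD-1. All 6 C3H arrays shared a slide, with the controls and treated animal 1 in one row of it and treated animals 2 and 3 in the other. A fit with the row as a block therefore sets treated animal 1 alone against the C3H controls. Markers of hepatocytes were well above background on all 14 arrays for 6 of 6 genes (Alb, Ttr, Apoa1, Cps1, Tat and Cyp2e1).

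A probe counted as called when its Benjamini-Hochberg adjusted p in the limma fit was under 0.05. Of 36085 probes tested, 1730 (4.79%) were called in the difference, 1215 higher in C3H and 515 lower. With 1 probe per gene, 1288 of 26731 genes were called (4.82%), 892 higher (3.34%) and 396 lower (1.48%). Phenobarbital alone gave 1609 called genes in CD-1 (6.02%), of which 332 rose (1.24%) and 1277 fell (4.78%), and 806 in C3H (3.02%), of which 567 rose (2.12%) and 239 fell (0.894%). Rises made up 21.0% of the called probes in CD-1, 31.8% after quantile normalization and 40.9% after normexp background correction with quantile normalization. In C3H rises made up 69.1%, 56.8% with normexp, 38.3% with only the probes above background on all 14 arrays, 46.1% without treated animal 1, 82.8% to 90.3% when any of the other C3H animals was left out and 96.9% with the replicate number as a block. The counts rested on single animals, most strongly in C3H. The C3H count was 1028 probes (2.85%) with all 6 animals and 3198 without treated animal 1. It was 180 and 278 without treated animals 2 and 3, and 221, 305 and 171 without controls 1, 2 and 3. In CD-1 2293 probes (6.35%) were called, and 1069 to 2278 with an animal left out. The difference count was 903 to 2185 with an animal left out.

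The effects were weakly correlated across genes. Over all genes 3.02% were called in C3H and 6.02% in CD-1. Of the called genes 96 were called in both strains, which is 5.97% of the CD-1 calls and 11.9% of the C3H calls. Among these 55 rose in both, 23 fell in both, 17 rose in C3H and fell in CD-1, and 1 fell in C3H and rose in CD-1. The counts of calls rested on single animals, so the small overlap does not show that the effects were unalike. Across the 12941 genes above background on all 14 arrays, Pearson's r between the effects was 0.21 and Spearman's rho 0.17, as a description over genes, which are not independent replicates. Of the 892 genes called higher in the difference, 307 rose in C3H with no call in CD-1, 382 fell in CD-1 with no call in C3H, and 17 did both. Of the 396 called lower, 88 rose in CD-1 only and 55 fell in C3H only by these calls.

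**Figure D1:**
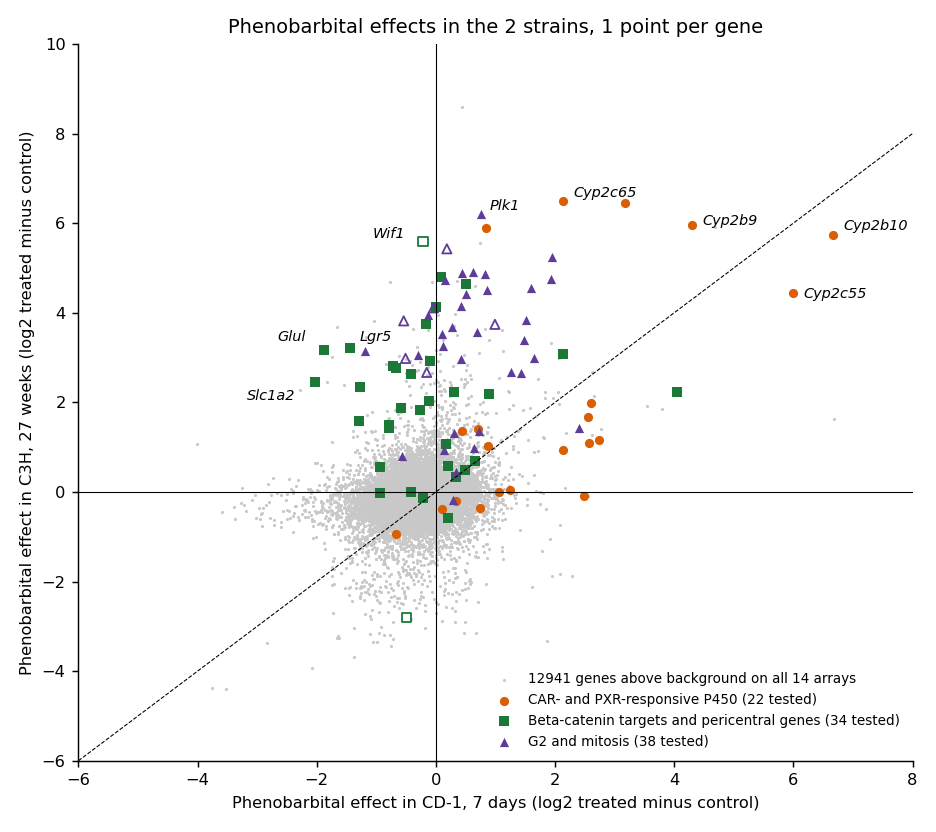
Phenobarbital effect in CD-1 (x axis, log2 treated minus control) against the effect in C3H (y axis, same scale), 1 point per gene, with grey points for the 12941 genes above background on all 14 arrays and colours for 3 gene lists; open symbols mark members with no CD-1 array above background, and the dashed line marks equal effects. Cyp2b10 lies near the line at 6.66 and 5.74, whereas Glul (-1.88 and 3.18) and most mitotic genes lie far above it.

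The induction of Cyp2b10 that marks a phenobarbital response was present in both strains. Cyp2b10, the main CAR target among mouse P450 enzymes, stood at 1.91, -0.21, 1.59 and 2.39 in the CD-1 controls and at 7.57, 8.20, 8.43 and 8.11 in the treated CD-1 animals (log2 signal relative to the 75th percentile of the array). In C3H it was 3.97, 4.72 and 4.53 in controls and 9.85, 10.13 and 10.45 after 27 weeks. The groups did not overlap in either strain, as held for 17.5% of all genes in CD-1 and 32.4% in C3H. The rise was 101-fold in CD-1 (6.66 ± 0.48, standard error (SE), adjusted p = 4.93e-05) and 53.3-fold in C3H (5.74 ± 0.26, adjusted p = 0.00183), and the difference of -0.92 ± 0.66 was not called (adjusted p = 0.414). Cyp2b10, Cyp2b9 and Cyp2b13 have near-identical sequences, so their probes may share signal. Not every gene named whatever its values rose. The P450 gene Cyp3a11 was called in neither strain. Its effect was 0.34 ± 0.41 in CD-1 (adjusted p = 0.619) and -0.20 ± 0.15 in C3H (adjusted p = 0.483). Alas1 rose 3.15-fold in CD-1 (adjusted p = 0.0341), and its C3H effect of 0.90 ± 0.66 was not called (adjusted p = 0.465).

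Other genes rose in both strains with no call of a difference on the probe that represents them. Por, the reductase that feeds electrons to every microsomal P450, rose 4.14-fold in CD-1 and 4.68-fold in C3H (difference 0.18 ± 0.54, adjusted p = 0.871). Orm3, an orosomucoid acute phase protein, rose 6.13-fold and 6.41-fold (difference 0.06 ± 0.44), and Gadd45b, a growth arrest and CAR-interacting protein, 4.18-fold and 7.94-fold (difference 0.93 ± 0.58). Prom1, the stem cell surface protein CD133, rose at least 16.4-fold in CD-1, where no control was above background, and 24.4-fold in C3H. A second Prom1 probe gave a difference of 3.05 in place of -0.23, and that one was called (adjusted p = 0.00752). After quantile normalization the first Prom1 probe was called lower, on the other side of 0 from the second. The glutathione transferase Gstm3 rose 16.5-fold and 4.7-fold (difference -1.81 ± 0.61, adjusted p = 0.0979). Under 4 of 25 other settings the difference of Gstm3 was called, and it ranged from -2.16 to -1.42 over all settings. These p-values do not show that the responses were equal, since the median SE of a difference was 0.47. Simulated differences of 2 log2 units were called in 22.5% of cases. The simulation held few changed probes, which makes its cutoff stricter than that of the real comparison, so this share may be too low.

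Falls were shared by fewer genes. G6pc, the last enzyme of glucose output, was 5.27, 5.34, 5.80 and 5.37 in CD-1 controls and 2.29, 4.18, 4.34 and 4.05 after phenobarbital, and 8.09, 7.86 and 7.09 against 4.09, 5.28 and 5.58 in C3H. All treated animals were below all controls of their strain. It fell by 1.73 in CD-1 and by 2.70 in C3H (adjusted p = 0.031 and 0.0426). Tlcd2 fell by 1.51 and 1.69, Acat2, which makes acetoacetyl-CoA in the cytosol, by 1.33 and 1.39, and Agpat2, an enzyme of phosphatidic acid synthesis, by 1.28 and 1.15.

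Within the P450 family the profile shifted between the settings. Of 22 P450 genes that respond to CAR or PXR, 11 rose in CD-1 and 12 in C3H (7 when any C3H animal other than treated animal 1 was left out, and 14 without that animal), and the difference was called higher for 3 and lower for 3 (median -0.58, against -0.04 over all genes tested). Over all genes 1.24% rose in CD-1 and 2.12% in C3H, and the difference was called higher for 3.34% and lower for 1.48%. The higher members of the P450 list were Cyp2c66, Cyp2c65 and Cyp1a2. Cyp2c66, an arachidonic acid epoxygenase of the gut, was -2.47, -2.82 and -2.35 in C3H controls and 3.29, 3.54 and 3.20 in treated C3H animals, a 59.5-fold rise, while its CD-1 effect was 0.84 ± 0.37 (difference 5.05 ± 0.48, adjusted p = 4.63e-05). Cyp2c65 rose at least 66.7-fold in C3H and at least 3.49-fold in CD-1 (difference 4.38 ± 0.50 as measured). No control of either strain was above background, so the size of the Cyp2c65 difference is uncertain. Cyp1a2, a pericentral P450 of caffeine and arylamine metabolism, rose 4.1-fold in C3H (difference 2.16 ± 0.47, adjusted p = 0.0168), a call of the difference that was lost without C3H treated animal 2 or 3. The lower members were Cyp2c54 (-1.57 ± 0.40), Cyp2c50 (-1.48 ± 0.41) and Cyp3a44. Cyp2c54 and Cyp2c50 rose 6.64-fold and 5.92-fold in CD-1, against 2.24-fold and, without a call, 2.12-fold in C3H, but further Cyp2c54 probes gave differences of -0.66 and -0.57. Cyp3a44, above background in no CD-1 control, rose at least 1.97-fold in CD-1, with a C3H effect of -0.09 ± 0.48. None of the lower calls held without C3H treated animal 2, C3H control 3 or CD-1 control 3. Probes of the Cyp2c and Cyp3a families can share signal between paralogues.

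Conjugation and transport genes differed in single members. Of 20 glutathione transferases 7 rose in CD-1 and 8 in C3H, where 1.24% and 2.12% of all genes rose. Mgst3, a microsomal member, was the one called in the difference (1.97 ± 0.45, adjusted p = 0.0232). That call was lost without C3H treated animal 2 or 3, C3H control 1 or 2 or CD-1 control 3, and a second Mgst3 probe, at 1.18, was not called (adjusted p = 0.16). Abcc4, an efflux pump of the basolateral membrane, was -2.36, -2.83, -3.32 and -3.11 in CD-1 controls and -1.59, -1.88, -1.62 and -1.63 after phenobarbital. No CD-1 control was above background, so the CD-1 rise was at least 2.02-fold and the size of the difference is uncertain. In C3H Abcc4 was -2.31, -1.91 and -1.93 in controls and 3.87, 4.94 and 5.15 in treated animals, a rise of 104-fold (difference 5.48 ± 0.44 as measured, adjusted p = 7.89e-06). The groups did not overlap in either strain. Nqo1 and Cbr3, reductases that respond to electrophiles through NRF2, rose 6.66-fold and 13.2-fold in C3H. The difference of Cbr3 was 3.21 ± 0.64, and Nqo1 was above background on no CD-1 array, so its CD-1 effect was not measured. Of 26 NRF2 targets tested 5 were called higher in the difference and none lower, where 3.34% and 1.48% of all genes were. Akr1b7, an aldose reductase family member, rose 90.5-fold in C3H and at least 6.78-fold in CD-1.

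Many beta-catenin targets and pericentral genes rose in C3H, and few were called in CD-1. Of 34 tested, 18 were called higher in the difference and 1, Sox9, lower, where 3.34% and 1.48% of all genes were. The median difference was 2.18, against -0.04 over all genes. In C3H 16 rose and none fell (6 to 8 rose when any C3H animal other than treated animal 1 was left out, and 22 without that animal), and in CD-1 2 rose and 4 fell. Scaling to probes above background on all 14 arrays gave 2 rises and 2 falls in CD-1, with a median of 0.04 in place of -0.22. The CD-1 median was lower for periportal genes (-0.76) and hepatocyte secreted proteins (-0.7), so CD-1 falls were not particular to this list. Among the 24 members above background on all 14 arrays 11 were called higher and none lower, where 2.86% and 0.788% of all such genes were. The difference was called higher for 13 to 21 members when animals were left out in turn.

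Glul, which makes glutamine from ammonia, was 3.68, 2.08, 3.30 and 2.75 in CD-1 controls and 0.42, 1.18, 1.56 and 1.15 in treated CD-1 animals. In C3H it was 6.04, 6.04 and 6.28 in controls and 8.62, 9.65 and 9.63 in treated animals. Every treated CD-1 animal was below, and every treated C3H animal above, all controls of its strain. Glul fell by 1.88 ± 0.38 in CD-1 (3.67-fold, adjusted p = 0.0133) and rose 9.04-fold in C3H (adjusted p = 0.00974), a difference of 5.05 ± 0.54 (adjusted p = 0.000104). Slc1a2, a glutamate transporter of the same pericentral hepatocytes, followed the pattern, at 2.0, 0.78, 2.30 and 1.80 against -0.80, -0.61, -0.05 and 0.25 in CD-1, and 2.55, 2.41 and 2.54 against 4.27, 5.42 and 5.18 in C3H. Its difference was 4.49 ± 0.53 (adjusted p = 0.000228), and again the groups did not overlap.

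Ammonia and glutamate handling in the same zone was represented by further members. Oat, ornithine aminotransferase, fell by 1.27 in CD-1 and was 5.52, 5.51 and 5.15 in C3H controls and 6.67, 8.43 and 8.11 in treated C3H animals (C3H effect 2.34 ± 0.47, adjusted p = 0.0588; difference 3.61 ± 0.49, adjusted p = 0.00071). Rhbg, an ammonium transporter, rose 13.5-fold in C3H, with a CD-1 effect of -0.17 ± 0.28 (difference 3.92 ± 0.44). In bulk liver a larger share of cells of a type and more RNA per cell cannot be told apart.

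Negative-feedback and receptor genes of the Wnt pathway were called as well. Axin2, the scaffold that marks beta-catenin activity in most tissues, was not above background in C3H controls and rose at least 3.7-fold there, with a difference of at least 2.30 (3.06 ± 0.39 as measured, adjusted p = 0.000373), and a second Axin2 probe gave 4.34. Lgr5, the R-spondin receptor, was -0.68, -0.43 and -0.44 in C3H controls and 1.70, 3.00 and 3.38 in treated animals, a 9.25-fold rise. It was above background in 2 of 4 CD-1 controls and in no treated CD-1 animal. Nkd1, an inhibitor of Dishevelled, rose 27.9-fold in C3H (difference 4.71 ± 0.57), although a second Nkd1 probe gave a difference of 0.91. Rnf43, a ubiquitin ligase that removes Wnt receptors, had a difference of 3.45 without a call in C3H (2.78, adjusted p = 0.072), and Wif1, a secreted Wnt inhibitor, rose 48.3-fold in C3H, where 1 of 3 controls was above background, but was above background on no CD-1 array.

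The transcription factors that carry beta-catenin to DNA were higher too. Lef1 rose at least 6.8-fold in C3H and Tcf7 7-fold, from controls of which 1 was above background, with differences of 4.15 ± 0.80 and 3.52 ± 0.53. Sp5, a direct Wnt target that acts as a repressor, rose 17.4-fold (difference 4.12 ± 0.89, adjusted p = 0.0161). Not every pericentral gene moved: Cyp2e1 was 10.91, 9.80 and 10.91 in C3H controls and 10.27, 10.63 and 10.71 in treated animals (difference 0.41 ± 0.46), and the differences of Notum (0.90 ± 0.54) and Znrf3 (0.04 ± 0.66), a secreted and a membrane inhibitor of Wnt signalling, were not called. Of 37 Wnt ligands, growth factors and receptors, 1 was called higher and 1 lower, where 3.34% and 1.48% of all genes were. The lower gene was Wnt2, a ligand of sinusoidal endothelium, which was above background on no C3H array, so its C3H effect was not measured.

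**Figure D2:**
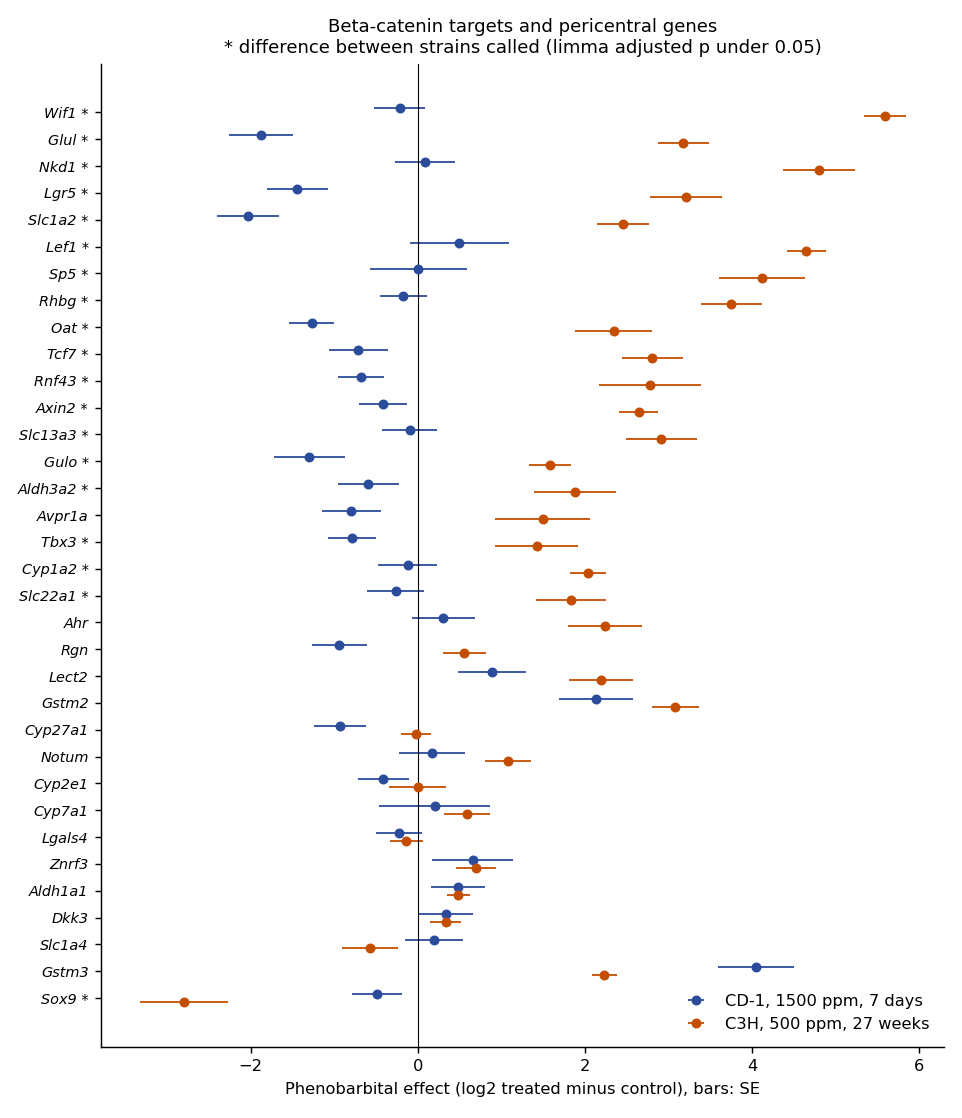
Phenobarbital effect (x axis, log2 treated minus control, bars SE) of the 34 tested beta-catenin targets and pericentral genes in CD-1 (blue, 8 animals) and C3H (orange, 6 animals), ordered by the difference, with an asterisk where the difference was called; Wif1 and Sox9 were above background on no CD-1 array. The C3H points of Wif1, Nkd1 and Lef1 lie at 5.59, 4.80 and 4.65, and those of Cyp2e1 and Lgals4 near 0.

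Promoter windows of RefSeq (GRCm38.p6, the 250 bases before the start) were searched on both strands, and matches may overlap. CTTTGAT, the core bound by TCF and LEF factors, was chosen after the values were seen. It occurred in 2 of the 13 windows found for the 18 called members, Slc1a2 and Sp5, and in 3.72% of 27025 genes. These 2 windows are shown because their genes lie among the called members and hold the match, which is in capitals (read on the minus strand in Slc1a2). The Slc1a2 window is chr2:102706188-102706437 and the Sp5 window chr2:70474673-70474922, both on the plus strand.
Slc1a2: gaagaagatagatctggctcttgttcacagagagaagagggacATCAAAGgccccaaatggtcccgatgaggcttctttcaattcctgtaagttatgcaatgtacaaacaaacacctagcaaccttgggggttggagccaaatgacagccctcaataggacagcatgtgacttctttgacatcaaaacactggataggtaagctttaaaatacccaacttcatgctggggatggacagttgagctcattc
Sp5: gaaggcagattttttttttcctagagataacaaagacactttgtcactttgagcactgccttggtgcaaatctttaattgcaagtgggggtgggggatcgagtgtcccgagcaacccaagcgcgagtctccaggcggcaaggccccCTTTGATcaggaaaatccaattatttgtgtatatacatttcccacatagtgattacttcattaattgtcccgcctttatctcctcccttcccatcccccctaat

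Most genes of G2 and mitosis were called as rising in C3H, and few were in CD-1. Of 38 tested members 25 were called higher in the difference and none lower (median 3.05), where 3.34% and 1.48% of all genes were. Over all genes 2.12% rose in C3H and 1.24% in CD-1. In C3H 31 members rose (median 3.54), 8 to 22 when any C3H animal other than treated animal 1 was left out, and 32 without that animal. In CD-1 5 members rose (median 0.43). Of these 25, 6 had no CD-1 array above background. The 5 members above background on all 14 arrays, Mki67, Ube2c, Ccnb2, Foxm1 and Hmmr, were all called higher. The count was 21 to 26 when animals were left out in turn and 16 after quantile normalization. With normexp and quantile normalization 25 members were called higher and 1 lower. The median difference was then 0.89 and the C3H median 0.90. Over all settings the difference was 0.96 to 4.29 for Mki67 and 1.16 to 4.46 for Ube2c. The size of the folds of mitotic genes therefore depends on the processing.

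Mki67, the proliferation antigen Ki-67, was -1.28, -0.07, -0.10 and 0.11 in CD-1 controls and -0.25, 0.40, 0.01 and 0.54 in treated CD-1 animals, which overlap. In C3H it was -2.27, -1.89 and -2.59 in controls and 1.41, 2.03 and 3.06 in treated animals, which do not. The C3H rise was 21.4-fold (4.42 ± 0.44, adjusted p = 0.0105) and the difference 3.91 ± 0.57 (adjusted p = 0.00124), with 3.41 from a second probe, but the call was lost after quantile normalization with and without normexp. Ube2c, the ubiquitin-conjugating enzyme of the anaphase-promoting complex, rose 15.4-fold in C3H against a CD-1 effect of -0.13 ± 0.27 (difference 4.07 ± 0.47), and its second probe gave 4.08. Foxm1, the factor that drives late cell cycle genes, rose 8.38-fold in C3H (difference 3.36 ± 0.54).

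Some mitotic genes also rose by smaller amounts in CD-1. Cdc20, the activator of the anaphase-promoting complex, rose at least 3.68-fold in CD-1 and 38.1-fold in C3H (difference 3.30 ± 0.59), and Birc5, survivin, 3.83-fold and 27.1-fold (difference 2.82 ± 0.76, adjusted p = 0.046; 5.42 and 3.94 on further probes). Ccnb1, cyclin B1, was called as rising in both strains, from CD-1 controls none of which was above background and C3H controls of which 1 of 3 was. Of the 36 genes of G1 and DNA replication 6 were called higher and 10 rose in C3H, where 3.34% and 2.12% of all genes did. Cyclin D1 (Ccnd1) rose 5.26-fold in C3H, and its difference of 1.99 ± 0.92 was not called (adjusted p = 0.211). Cdk2 was called higher with a CD-1 fall that was called (adjusted p = 0.0188), treated animals being below background, and a C3H effect of 0.66 (adjusted p = 0.137).

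Promoters of the mitotic members were searched for TTTGAA, the cell cycle homology region through which late cell cycle genes are repressed in resting cells, and for CCAAT, bound by NF-Y. Both were chosen after the values were seen. CCAAT occurred in 16 of the 21 windows found for the 25 called members (76.2%, against 37.5% of 27025 genes) and TTTGAA in 6 (28.6%, against 18.3%). A high share of CCAAT was not particular to mitotic genes. It was in 5 of 7 windows of the 8 largest higher differences and 5 of 6 of the opposite changes, sets that share genes. It was in 2 of 6 windows of the largest lower differences and 4 of 13 of the called beta-catenin and pericentral members. CTTTGAT was in 2 of the 21 mitotic windows, Bub1b and Ube2c. The windows of Mki67 (chr7:135716380-135716629, minus strand) and Ube2c (chr2:164769679-164769928, plus strand) are shown because they hold several TTTGAA or CCAAT matches, in capitals, in either orientation.
Mki67: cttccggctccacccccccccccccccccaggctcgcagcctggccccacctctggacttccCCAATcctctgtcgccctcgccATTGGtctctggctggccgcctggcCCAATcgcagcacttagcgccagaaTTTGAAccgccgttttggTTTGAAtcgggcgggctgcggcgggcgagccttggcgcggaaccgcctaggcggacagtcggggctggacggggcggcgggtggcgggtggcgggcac
Ube2c: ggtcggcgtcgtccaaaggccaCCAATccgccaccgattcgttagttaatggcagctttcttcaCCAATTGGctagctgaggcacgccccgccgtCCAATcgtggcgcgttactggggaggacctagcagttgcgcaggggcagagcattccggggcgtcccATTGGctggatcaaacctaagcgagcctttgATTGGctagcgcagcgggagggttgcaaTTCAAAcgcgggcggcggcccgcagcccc
The 4 other motifs of the search gave small counts. Among the 7 windows of the 8 largest higher differences AGTTCA occurred in 1, AGGTCA in 2, TTCNNNGAA in 1 and TTTGGCGC in 0, against 13.4%, 15.8%, 8.13% and 0.485% of all genes. The 8 genes that rose most in both strains held AGGTCA in 1 window and none of the other 3.

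Immediate-early genes respond within minutes to growth factors and stress. Of 24 immediate-early and heat-shock genes tested 12 were called higher in the difference and none lower (median 1.67). Over all genes 3.34% were called higher and 1.48% lower. In C3H 7 rose (2 to 4 when any C3H animal other than treated animal 1 was left out, and 10 without that animal) and in CD-1 none rose and 1 fell. Without C3H treated animal 2 the difference was called for 6. Fos was -4.88, -3.30 and -4.73 in C3H controls, none above background, and 1.40, 2.67 and 1.29 in treated animals, a rise of at least 37.4-fold. It was above background on no CD-1 array. Atf3, a stress-induced factor, rose 42.1-fold in C3H (difference 5.57 ± 0.91, adjusted p = 0.00288). Myc was -1.18, -1.09 and -1.73 against 1.45, 1.46 and 1.60 in C3H, and -1.16, -1.43, -1.69 and -1.36 against -0.73, -1.17, -0.36 and -1.25 in CD-1 (difference 2.31 ± 0.38, adjusted p = 0.00279). The C3H groups of Myc were far apart and the CD-1 groups overlapped. The heat-shock members Hspa8, Hsph1, Hspd1 and Hspe1 had differences of -0.39, 0.41, 0.46 and 0.82, none called. Dusp1, a phosphatase that switches off MAP kinases, was higher by at least 3.58, with a fall of at least 5.53-fold in CD-1.

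Some stress and growth arrest genes had higher levels in treated C3H animals. Nupr1, a chromatin protein induced by cell stress, was -1.18, -0.41 and -0.70 in C3H controls and 4.08, 3.89 and 4.00 in treated animals, a 27-fold rise with little spread (difference 4.26 ± 0.48, adjusted p = 0.000141). Phgdh, the first enzyme of serine synthesis and a target of ATF4, rose 2.99-fold (difference 2.05 ± 0.36, and 4.39 on a second probe). Btg2, a p53-responsive antiproliferative gene, rose 8.05-fold in C3H and was above background on no CD-1 array. Among 21 p53 targets 3 were called higher and none lower (median difference 0.56), and 1 rose in C3H. Of 31 ATF4 targets and ER chaperones 5 were called higher (median 0.26), and of 26 Gadd45 and Bcl2 family genes 2 (median 0.45). None of either list was called lower, and 3.34% of all genes were called higher.

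Fetal liver, imprinted and liver tumour markers were called higher for 7 of 26 and lower for 1, where 3.34% and 1.48% of all genes were. Meg3, a maternally expressed non-coding RNA of the imprinted Dlk1 domain on chromosome 12, was 0.17, -0.40, -0.26 and 0.10 in CD-1 controls, -0.84, -0.66, -1.02 and -2.03 in treated CD-1 animals, 1.62, 2.23 and 1.80 in C3H controls and 4.93, 5.63 and 6.54 in treated C3H animals. It rose 14.1-fold in C3H (difference 4.86 ± 0.54, adjusted p = 0.000137). Its neighbours in the domain, Mirg and Dlk1, rose 15.5-fold and at least 6.52-fold in C3H, with differences of 3.92 ± 0.63 and 3.54 ± 0.71. Afp, alpha-fetoprotein, was -0.62, 1.75 and -0.77 in C3H controls and 2.43, 5.0 and 4.24 in treated animals. The C3H groups did not overlap, but the C3H effect of 3.77 ± 0.91 was not called (adjusted p = 0.0874). No CD-1 array was above background, so the CD-1 effect was not measured. Gpc3, glypican-3, did not pass (difference 4.03 ± 1.25, adjusted p = 0.0784).

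Ly6d, a GPI-anchored marker of B cell precursors and some epithelia, had the largest difference among genes above background on all 14 arrays. It was -0.85, -0.10, -0.41 and 0.23 in CD-1 controls and 0.23, 0.18, 0.49 and -0.24 in treated CD-1 animals. In C3H it was -2.41, 1.27 and -2.22 in controls and 6.99, 7.54 and 7.85 in treated animals, so that control 2 stood above the other controls but far below every treated animal. The difference was 8.14 ± 0.92 (adjusted p = 0.000145). Calml4, a calmodulin-like protein, and Pcp4l1, a small calmodulin-binding protein, were higher by 4.81 ± 0.53 and 4.76 ± 0.56; Calml4 rose 47.2-fold in C3H, and Pcp4l1 rose 8.09-fold in C3H and fell 3.34-fold in CD-1.

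Pnliprp1, a lipase-related protein of the exocrine pancreas, had the largest C3H effect of all list members tested (11.07 ± 0.83). It was -2.04, -4.76 and -4.69 in controls, of which 1 was above background, and 7.10, 6.45 and 8.16 in treated animals, against -2.40, -1.91, -2.29 and -1.84 and then -1.02, -0.40, -0.83 and -0.54 in CD-1. The difference was 9.66 ± 0.77 (adjusted p = 7.79e-06). Of the other pancreatic markers Cela1, an elastase, also rose in C3H, 19.9-fold (4.31 ± 0.55, adjusted p = 0.0203), with a called difference of 3.58 ± 0.74 (adjusted p = 0.0131) that was lost after quantile normalization. Ctrb1 and Cel had differences of -0.21 and 0.78, which were not called, and Cpb1 and Try4 were above background on no array. Clps was called lower, a call lost under 19 of 25 other settings, among them leaving out any 1 of the 6 C3H animals.

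**Figure D3:**
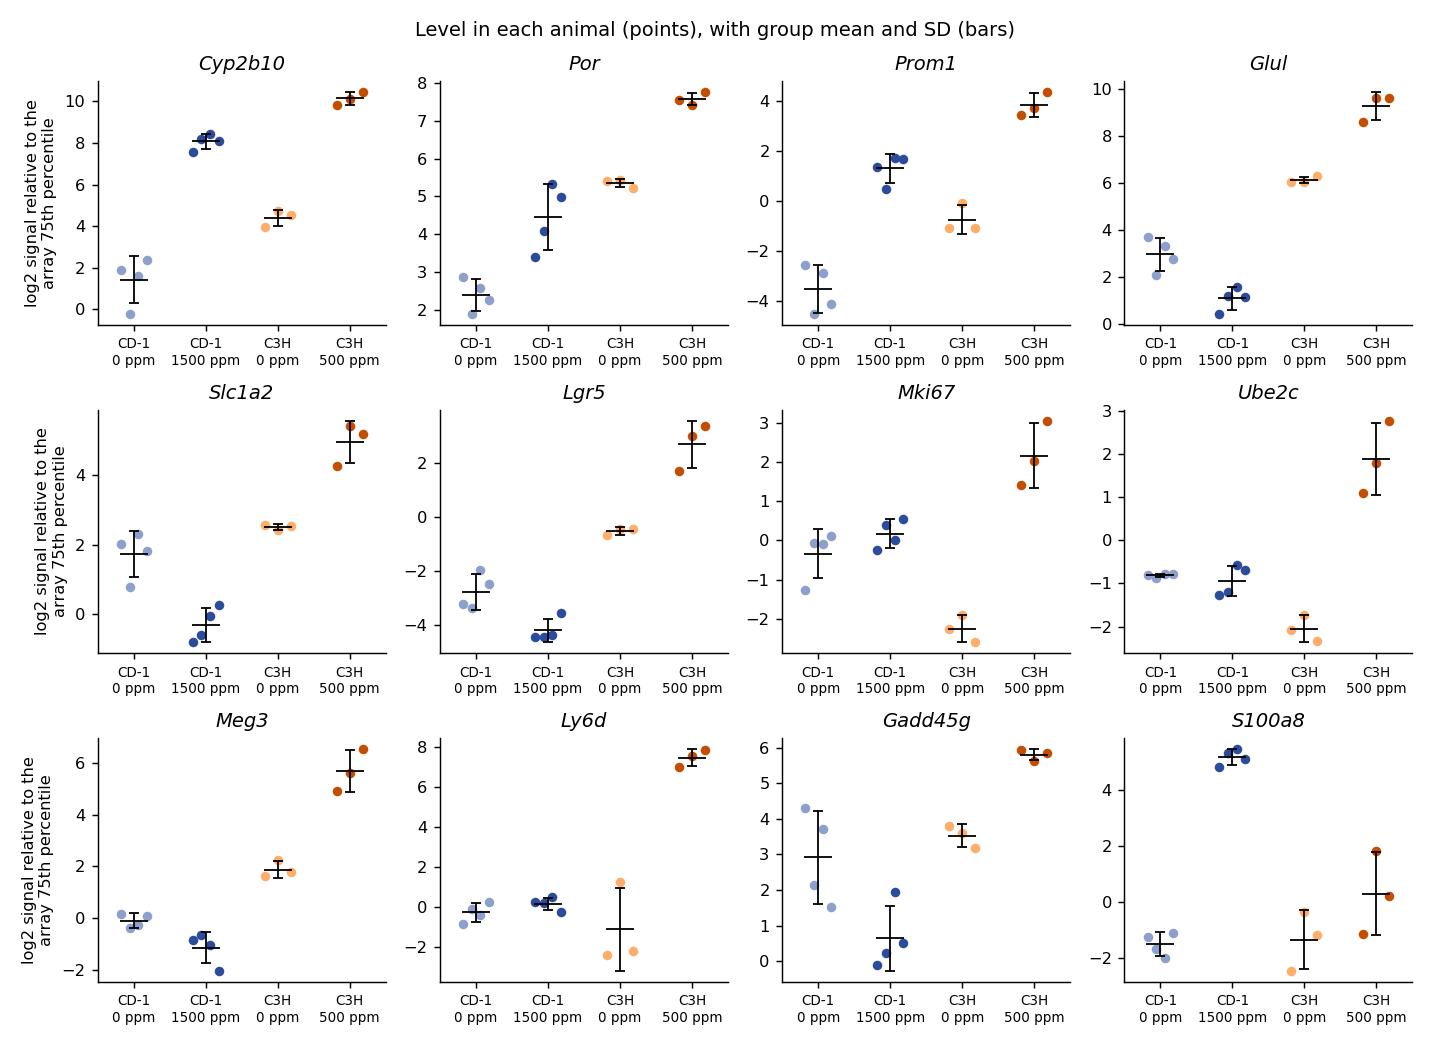
Level of 12 genes in each of the 14 animals (y axis, log2 signal relative to the 75th percentile of the array), with the group mean and SD as bars. Cyp2b10, Por and Prom1 rise in both strains, Glul and Slc1a2 move in opposite directions, and Ly6d stands at 6.99 to 7.85 in treated C3H animals and at or below 1.27 in all others.

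Of 28 female-biased liver genes, silenced in males by pulsatile growth hormone through STAT5, 10 were called higher in the difference and 1 lower. Over all genes 3.34% and 1.48% were. In C3H 10 members rose and in CD-1 8, where 2.12% and 1.24% of all genes rose. Among the 9 members above background on all 14 arrays, 2 were called higher and none lower. Their median difference was -0.76, against 1.51 over the list. After quantile normalization 6 members were called higher and 3 lower, and with normexp 7 and 3. The number called higher was 6 without C3H treated animal 2 or 3, C3H control 1 or 3 or CD-1 treated animal 1, and 5 without CD-1 control 3. Sult2a2, a hydroxysteroid sulfotransferase, rose at least 15.5-fold in C3H, and Slc22a27, an organic anion transporter, at least 15-fold. Tox, a nuclear factor, rose at least 7.23-fold. The C3H count was 3 to 7 when any C3H animal other than treated animal 1 was left out and 15 without that animal. Of the 10 differences called higher 4 were for genes above background on no CD-1 array. Cyp2b9 and Cyp2a4 rose in both strains, with differences of 1.66 and -0.62 that were not called. Of 27 male-biased genes 3 fell in CD-1 and 1 in C3H, where 4.78% and 0.894% of all genes fell, and no difference was called (median -0.68).

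The median periportal gene was lower than in controls in all 3 treated C3H animals, by unequal amounts. Of 33 genes of the periportal zone, urea cycle and amino acid breakdown, 1 was called higher in the difference (Prodh) and 1 lower (Cdh1), and the median was -0.96. Over all genes 3.34% were called higher and 1.48% lower. The call of Prodh was lost without C3H treated animal 2 or 3, C3H control 2 or CD-1 control 3. Cps1, the entry enzyme of the urea cycle, was 6.14, 6.0 and 6.18 in C3H controls and 5.16, 2.74 and 0.39 in treated animals 1 to 3. Hal, histidase, was 7.02, 6.76 and 7.05 against 6.02, 3.65 and 0.82, and Pck1, the gluconeogenic carboxykinase, 8.23, 7.92 and 7.75 against 7.81, 5.01 and 1.52. Treated animal 1 was below all controls for Cps1 and Hal and within their range for Pck1, and animal 3 was far below. With that spread the C3H effects of Cps1 (-3.34 ± 1.12) and Hal (-3.44 ± 1.22) were not called (adjusted p = 0.156 and 0.172). Without treated animal 1, 13 members were called lower in the difference and 22 fell in C3H.

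The spread between treated C3H animals was also seen over whole lists. The median deviation of members from the mean of the strain's controls was -0.48, -1.84 and -2.12 in animals 1, 2 and 3 for periportal genes, 1.30, 2.23 and 2.66 for beta-catenin and pericentral genes and 2.77, 3.60 and 4.33 for mitosis, while P450 genes stood at 1.47, 1.01 and 1.19. Treated animal 1 was nearest to the controls in the first 3 lists and farthest from them in the P450 list. Animals 2 and 3 share the other row of the slide, and the part of the row in this was not tested. Over all genes tested the median was -0.06, -0.19 and -0.11. The treated CD-1 animals were uneven too, at -0.25, -0.02, 0.05 and -0.01 over all genes in animals 1 to 4. For fatty acid oxidation genes these 4 stood at -1.54, -0.49, -0.46 and -0.77, and for hepatocyte secreted proteins at -1.19, -0.63, -0.29 and -0.55.

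**Figure D4:**
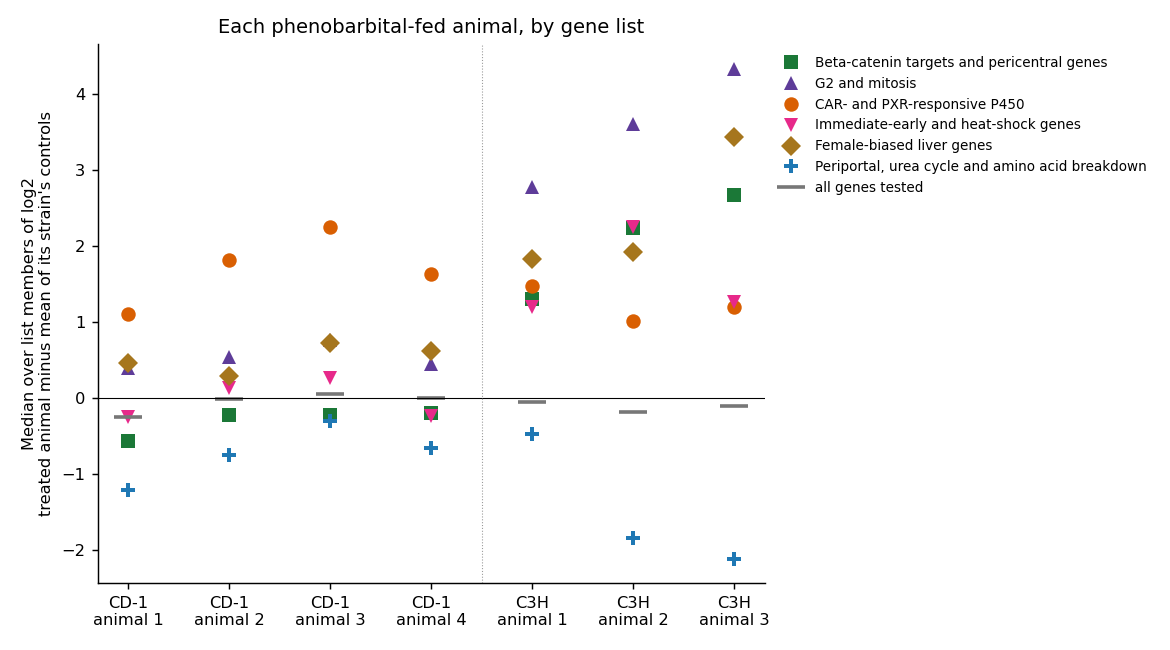
Median over list members of the log2 level of each phenobarbital-fed animal minus the mean of its strain's controls (y axis), for 6 lists and for all genes tested (x axis, 4 CD-1 and 3 C3H animals). In C3H the mitosis list lies between 2.77 and 4.33 and the periportal list between -2.12 and -0.48, whereas the P450 list lies between 1.01 and 1.47.

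The largest lower differences included genes with the same uneven fall. Pax2, a developmental factor of kidney, was 7.51, 6.88 and 7.04 in C3H controls and 6.66, 3.77 and 1.05 in treated animals, and it rose 3.65-fold in CD-1 (difference -5.19 ± 1.22, adjusted p = 0.026); a second Pax2 probe gave -0.83, and the call was lost without C3H treated animal 2, C3H control 1 or 3 or CD-1 treated animal 2. Mup6, a major urinary protein whose probe may share signal with the rest of that family, rose 3.06-fold in CD-1 and was 6.0, 5.61 and 5.64 against 5.34, 3.47 and 2.05 in C3H (difference -3.74 ± 0.76, adjusted p = 0.0117). Cdh1, E-cadherin, which is denser on periportal hepatocytes, was 1.43, 1.72 and 1.77 against 0.78, -0.43 and -2.70 in C3H (difference -2.92 ± 0.78, adjusted p = 0.0463), a call lost when any of 11 of the 14 animals was left out. Irf5, an interferon regulatory factor of myeloid cells, and Car1, a carbonic anhydrase, had differences of -2.89 ± 0.59 and -2.54 ± 0.44 with no call within either strain. Sox9, a bile duct and progenitor factor, was above background in the C3H controls alone, with a C3H fall that was not called (adjusted p = 0.0537), and the call of its difference was lost when any of 7 of the 14 animals was left out, while Krt19, a bile duct keratin, was higher in the difference by 3.01 ± 0.54.

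S100a8, a calcium-binding protein of neutrophils, went against the trend. It was -1.25, -1.67, -2.01 and -1.10 in CD-1 controls and 4.82, 5.32, 5.45 and 5.08 in treated CD-1 animals, a 102-fold rise (adjusted p = 9.11e-07). In C3H it was -2.45, -0.38 and -1.20 against -1.14, 1.80 and 0.21, which overlap (difference -5.04 ± 0.80, adjusted p = 0.0024). Its heterodimer partner S100a9 did not share the CD-1 rise (0.62 ± 0.32, adjusted p = 0.239). Of 11 neutrophil markers tested, 2 rose in CD-1, where 1.24% of all genes rose, and none was called in C3H. Their median CD-1 effect was 0.62, against -0.05 over all genes, and the median was positive in every treated CD-1 animal (0.73, 0.59, 0.29 and 0.49). The summed level of the 15 on the array was 173 to 383 in CD-1 controls and 136 to 336 in treated CD-1 animals.

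Some differences came from falls in CD-1. Spats2l, a stress granule-associated protein, was 3.30, 2.35, 2.62 and 2.86 in CD-1 controls and -1.45, -1.13, -1.19 and -1.12 after phenobarbital, a 16-fold fall, and -2.03, -1.98 and -2.03 against -0.84, -0.66 and -1.32 in C3H (difference 5.07 ± 0.36, adjusted p = 3.58e-06). Gadd45g, the sister gene of Gadd45b, fell 4.86-fold in CD-1 and rose 4.85-fold in C3H (difference 4.56 ± 0.83, adjusted p = 0.00565), although its CD-1 groups overlapped. Dmpk, a muscle kinase with a second probe at 1.78, and Slc16a11, a monocarboxylate transporter, fell 3.55-fold and 2.92-fold in CD-1 and rose 5.46-fold and 5.22-fold in C3H. Sapcd2, a regulator of spindle orientation, was higher by at least 6.48 in the difference, since it lay below background in treated CD-1 animals and in C3H controls. Alb fell by 1.97 in CD-1, and its C3H effect was -0.71 (difference 1.26 ± 0.47, adjusted p = 0.132).

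Of 31 nuclear receptors and partners 5 fell in CD-1 and 1 in C3H, with 3 called higher and 1 lower in the difference. Over all genes 4.78% fell in CD-1 and 0.894% in C3H, and the difference was called higher for 3.34% and lower for 1.48%. Nr1i3 (CAR) fell 2.37-fold in CD-1, with a C3H effect of -0.21 ± 0.19 (difference 1.04 ± 0.40, adjusted p = 0.148), and Nr1i2 (PXR) was called in neither. The lower gene was Nr0b2, the bile acid-induced repressor SHP, which fell 3.71-fold in C3H, and the call of its difference (-2.08 ± 0.50, adjusted p = 0.0301) was lost under 12 of 24 other settings, among them leaving out any 1 of the 3 treated C3H animals.

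Metabolic and some other lists gave few calls, where 4.82% of all genes were called. No difference was called among 24 genes of cholesterol synthesis, 28 of fatty acid synthesis, 15 of the circadian clock, 35 interferon-stimulated genes or 36 hepatocyte secreted proteins. Their medians were 0.67, 0.73, 0.80, -0.09 and 0.23, against -0.04 over all genes. At that share such lists would hold few calls, so these counts do not show that the genes were unchanged. Of 36 genes of fatty acid oxidation 4 were called higher (median 1.06), among them Pdk4, which spares glucose by blocking pyruvate dehydrogenase (3.18, adjusted p = 0.0168), a call lost without C3H treated animal 3. Of 16 genes of DNA methylation and chromatin 4 were called higher, among them Dnmt1 and Dnmt3a, whose calls were lost under 11 of 25 and 12 of 24 other settings.

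**Figure D5:**
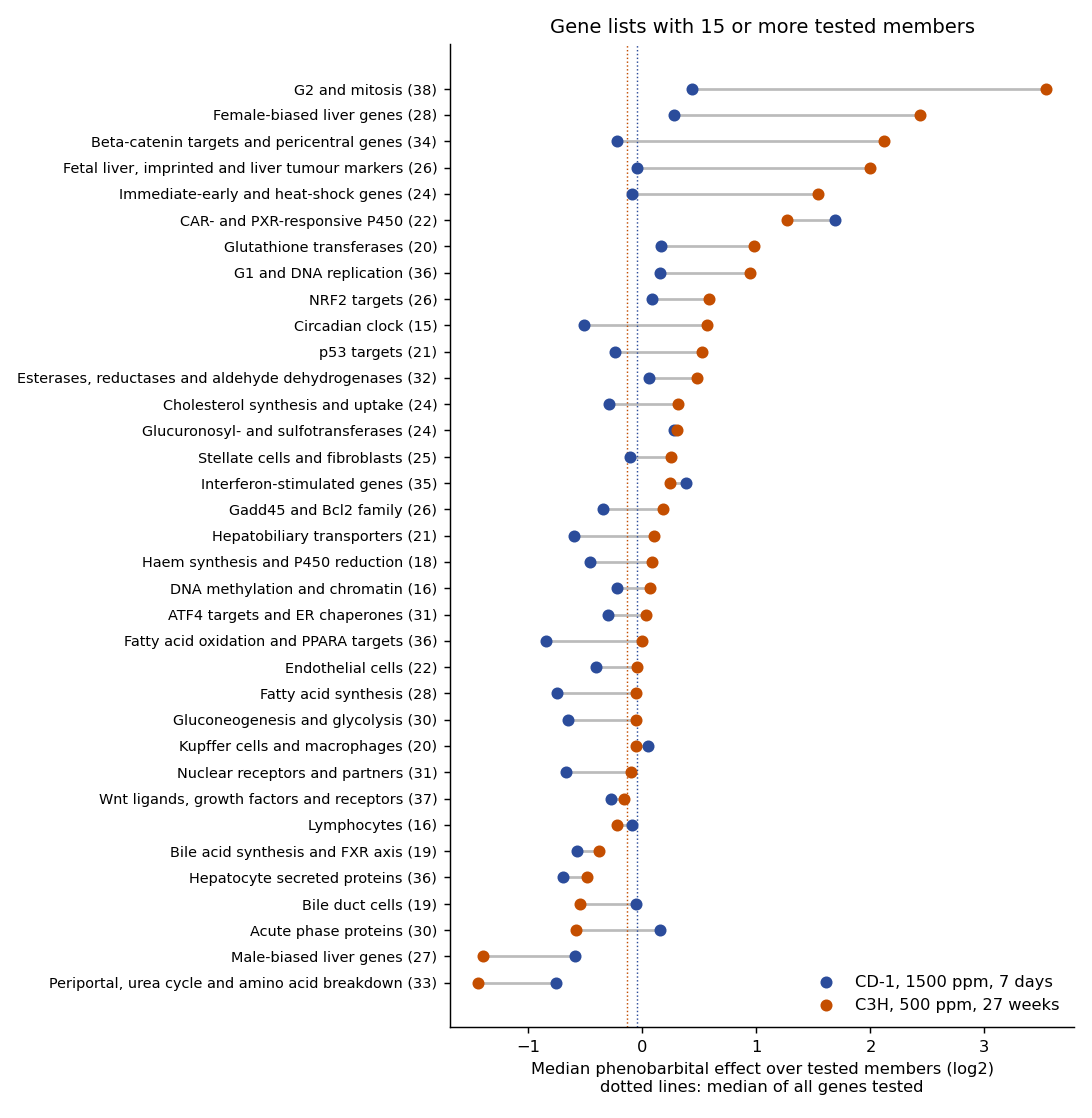
Median phenobarbital effect over the tested members of each gene list (x axis, log2) in CD-1 (blue) and C3H (orange), for lists with 15 or more tested members, whose number is in parentheses; dotted lines mark the median of all genes tested. The mitosis list is farthest apart, at 0.43 in CD-1 and 3.54 in C3H, and the P450 list is closer, at 1.69 and 1.27.

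Markers of other liver cells gave few calls in the difference, where 3.34% of all genes were called higher and 1.48% lower. In lists of this size an absence of calls does not show that the genes were unchanged. No difference was called among 20 macrophage or 22 endothelial markers, 1 of 16 lymphocyte markers was called higher (Ccl5, a call lost under 18 of 25 other settings), and 4 of 25 stellate cell and fibroblast markers were called higher and none lower, among them Fbln2 (at least 2.55). In C3H the summed level of 28 stellate and fibroblast markers was 243 to 289 in controls and 282 to 431 in treated animals, and that of 22 bile duct markers 275 to 630 and 493 to 789; Lox and Muc1 were above background on no array. The summed level of 16 pancreatic markers, 13.7 to 15.1 in C3H controls and 108 to 316 in treated animals, held the rise of Pnliprp1. The part of these cells in the results above was not tested.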

How the data were processed

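Total RNA from liver was hybridised to one-colour (Cy3) Agilent arrays, per the labels' protocols. The deposited scanner files, made with Feature Extraction 10.7.3.1 per the file headers, hold spot intensity, of which the background-subtracted processed signal was used. The deposited value table holds log2 values that matched these data after a shift to the 75th percentile, and served as an alternative.

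Control spots and outlier flags were dropped, spots of a probe averaged, and log2 intensity taken minus the 75th percentile of its array. A probe was tested when well above background on every array of at least 1 of the 4 groups (36085 probes). Group means were fitted with limma 3.58.1 in R 4.3.3 (lmFit, eBayes), over 14 arrays for the difference and within each strain for each effect, with two-sided p-values adjusted by Benjamini-Hochberg over all tested probes and a threshold of 0.05. The 14-array fit assumes like spread in both strains. A gene was represented by its probe with the highest mean over the 14 arrays. Fold changes are powers of 2 of log2 differences. Where no array of a group was above background, "at least" folds use, per array, the higher of the probe's own signal and the lowest signal well above background. Differences of such genes given with an SE are as measured, from signals near background, so their size is uncertain. Of the probes on the array 26582 had a gene symbol and 29099 had none, and 950 of 974 listed genes were present.

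Genes were named by rule: a set chosen whatever its values; the 8 largest differences each way among called genes above background on all 14 arrays; 8 shared changes each way; up to 6 opposite changes each way; the 4 largest bounded differences each way; and up to 3 called members of each list. Further list members named here were chosen after their values were seen. The members and the gene lists were chosen with earlier results of these data known. Labels call the animals biological replicates, and the small number of arrays limits the precision. On simulated data for the 14-array comparison, drawn over 36085 probes, 1.2%, 22.5% and 72.5% of differences of 1, 2 and 3 log2 units were called. In these data 80, 80 and 40 probes carried such differences and all others none, whereas 1730 probes were called in the real comparison. The Benjamini-Hochberg cutoff was therefore stricter in the simulation, and its shares may be too low for the real data. Alternatives covered normalization, background correction, the filter on dim probes, the samples in the fit, blocks and leaving out each animal. The slide as a block could not be fitted, and the row on the slide was added after seeing the data. The 14 arrays of the other strain entered in 1 alternative only.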

Additional observations from a re-analysis of the deposited data

Results flagged for a closer look

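The phenobarbital effect differed between the strains by the interaction test for 1730 probes. Among the genes named by rule the tested difference of the effects was 5.05 for Glul, 3.06 for Axin2, 4.65 for Lgr5, 4.49 for Slc1a2, 3.91 for Mki67, 3.99 for Afp, 8.14 for Ly6d, 5.07 for Spats2l, 5.05 for Cyp2c66, 4.86 for Meg3, 4.81 for Calml4, 4.76 for Pcp4l1, 4.56 for Gadd45g, 4.28 for Dmpk and 3.93 for Slc16a11. It was below 0 for S100a8 (-5.04), Pax2 (-5.19), Mup6 (-3.74), Wfdc15b (-3.21), Cdh1 (-2.92), Irf5 (-2.89), Ripply2 (-2.70) and Car1 (-2.54). The calls of Wfdc15b and Ripply2 were lost under 14 and 16 of 25 other settings, and neither gene was called within a strain. Slide, strain, dose, duration and carcinogen cannot be told apart in any of these differences, and Afp was above background on no CD-1 array.

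In 5 groups of 4 CD-1 animals 1 animal stood apart from the other 3. Lgr5 was -3.54 in treated animal 4 against -4.45 to -4.36 in the others, none of them above background. Mki67 was -1.28 in control 1. G6pc (2.29), Slc16a11 (-1.24) and Tmem178b (2.39) stood apart in treated animal 1. Chance gives about 1 such group in 20, and 114 groups were examined; the C3H groups of 3 were not.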

How the results depend on the processing

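The 1730 probes called in the difference became 5052 with all 28 arrays in 1 fit, 4015 with normexp and quantile normalization, 1117 with no filter on dim probes, 989 of 15782 with only probes above background on all 14 arrays, and 447 with the row on the slide as a block, an alternative chosen after seeing the data. Under that block the C3H effect is treated animal 1 alone against the controls, an animal assumed to vary like the others, so its values are those of 1 treated animal. Leaving out each animal gave 903 to 2185, with 977 and 903 without C3H treated animals 2 and 3, 1064 and 967 without C3H controls 2 and 3, 1124 without CD-1 treated animal 2 and 1041 without CD-1 control 3. The CD-1 count of 2293 became 5593 with normexp and ranged from 1069 to 2278 with an animal left out (1362, 1113 and 1273 without treated animals 1, 2 and 4 and 1069 without control 3). The C3H count of 1028 became 2671 with normexp, 2431 with only probes above background on all 14 arrays, 655 with no filter and 91 with the row as a block, and ranged from 171 to 3198 with an animal left out. Counts with the value table, quantile normalization, separate variances, 1 probe per gene or a 2-fold minimum stayed within 1.5 times. The cause of these shifts was not tested. Of the 1730 probes 1127 were also called with normexp and 377 with the row as a block.

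The replicate number as a block gave 780 probes for the difference, 1221 in CD-1 and 130 in C3H. Same-numbered animals did not deviate together (correlations -0.401 to 0.05 in CD-1 and -0.015 to 0.043 in C3H), so the samples share only a number.

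Scaling to probes above background on all 14 arrays moved the median difference over all probes from -0.06 to -0.31. With normexp the median difference fell from 3.05 to 0.89 for mitosis. It fell from 2.18 to 1.44 for beta-catenin and pericentral genes and from 1.67 to 0.73 for immediate-early and heat-shock genes. Of the 89 called genes among those named by rule 30 kept the call under every setting, Glul between 4.38 and 5.72, and none reversed. The differences that changed sign were all uncalled. With normexp they were Cyp2b10 (0.50), Cyp2b9 (-0.81), Cyp2c55 (0.55), Gadd45b (-0.56), Orm3 (-1.15), Cyp2a4 (0.81), Fam171a1 (-0.02), Tlcd2 (0.21) and Agpat2 (-0.03). With quantile normalization they were Cyp2b9 (-2.02), Por (-0.06), Gadd45b (-0.73), Orm3 (-1.30), Cyp2a4 (0.77), Fam171a1 (-0.70), Tlcd2 (0.54) and Marveld3 (0.75). With the other percentile they were Por (-0.08), Orm3 (-0.19) and Agpat2 (-0.12), and with the row as a block Tlcd2 (0.16), Acat2 (0.19) and Agpat2 (-0.09). With an animal left out some were on either side of 0, over the ranges -0.17 to 0.47 for Por, -0.55 to 0.11 for Prom1, -0.03 to 1.17 for Cyp7a1, -0.12 to 0.33 for Orm3, -0.23 to 0.13 for Acat2 and -0.02 to 0.25 for Agpat2. The dimmer CD-1 signals limit what the difference can show for genes near background.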
